A study of Saccharomyces cerevisiae with 60 samples.

Results

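The comparison described here set M34, 1 of 9 strains of budding yeast (Saccharomyces cerevisiae), against the other 8 strains during growth in copper sulfate medium. Its members are the 3 arrays titled for M34 in copper sulfate medium, of 60 arrays in all, and they were compared with the 24 copper arrays of M32, M5, M14, M13, M22, S288C, YPS163 and M8. S288C is the laboratory strain behind the reference genome, and each strain is a single isolate. Total RNA from exponentially growing cells of each strain was hybridised on 2-colour arrays against a pool of RNA from all 9 strains grown in the same medium, with 3 arrays per strain in copper sulfate medium and 3 in rich medium. The copper comparison was between strains within copper sulfate medium. The 3 M34 arrays and 24 arrays of the other strains in rich medium were compared in the same way, to set beside the copper values. The copper concentration is not given in the sources used here. Values are log2 ratios of strain over pool, centred on each array's median, for 5524 genes, so a value of 0 is the level of a typical gene against the pool, and a difference of 1 is a 2-fold difference in level. The labels number the 3 arrays of a strain as replicates without saying that they came from separate cultures. P-values therefore measure the spread between arrays of the same strain, which may be technical, and not the spread between strains. The small number of arrays limits the precision.

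Copper is needed by cytochrome c oxidase and by the superoxide dismutase Sod1, but it is toxic in excess, and yeast binds the excess with the metallothioneins Cup1 and Crs5. The mitochondrial genome encodes a few core subunits of the respiratory chain and of the ATP synthase, and COX1, ATP8 and ATP6 are transcribed together; processing separates the COX1 message, while ATP8 and ATP6 stay on shared messages. Ty1 and Ty2 are retrotransposons, mobile elements that copy themselves through RNA, and yeast strains carry different numbers of them; each full element has a Gag frame for the coat protein and a longer Gag-Pol frame that also encodes protease, integrase and reverse transcriptase.

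The files do not state whether a ratio is channel 1 over channel 2 or the reverse. The direction used here rests on the pool, which holds all 9 strains, so that for a gene that varies between strains the mean ratio of the strains over the pool should lie near 1. Over the 200 most variable rows the median size of the log2 of that mean was 0.129 in copper and 0.220 in rich medium with channel 1 on top, against 0.581 and 0.507 with channel 2 on top. With the sign turned, every difference below would keep its size and p-value and change its direction. Among 40 pairs of an M34 copper array and an array of another strain in the same channel order, 2 correlated under -0.3 over all genes, the lowest at -0.47. The 3 M34 arrays correlated with each other at -0.25 to 0.24 over all genes and at 0.38 to 0.49 over the 200 most variable genes. A smooth trend over spot positions held 21.0%, 50.2% and 54.3% of the variance of M34 arrays 1, 2 and 3, so the calls are also given below with that trend subtracted as a running median.

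In copper sulfate medium M34 had higher signal than the mean of the other strains at 10 of 5524 genes (0.181%) and lower signal at 2 (0.0362%), by limma with Benjamini-Hochberg adjusted p under 0.05. The higher genes were 8 Ty1 Gag-Pol frames, the small uncharacterised frame YER138W-A and the subtelomeric gene COS4, and the lower ones were the mitochondrial ATP synthase genes ATP8 and ATP6. At an unadjusted p under 0.05, 108 genes (1.96%) were higher and 76 (1.38%) lower, and the median difference over all genes was 0.02 on the log2 scale. The 12 calls fell to 3 without M34 array 1, to 3 without M34 array 2 and to 6 without M34 array 3. They fell to 5 without the arrays of M8 in both media, the strain with the lowest Ty1 values. Without every strain's replicate 1 there were 0 calls by limma (64 genes at an unadjusted p under 0.05), and without every strain's replicate 3 there were 5. With the running median subtracted there were 20 calls, which held all 12.

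**Figure D1:**
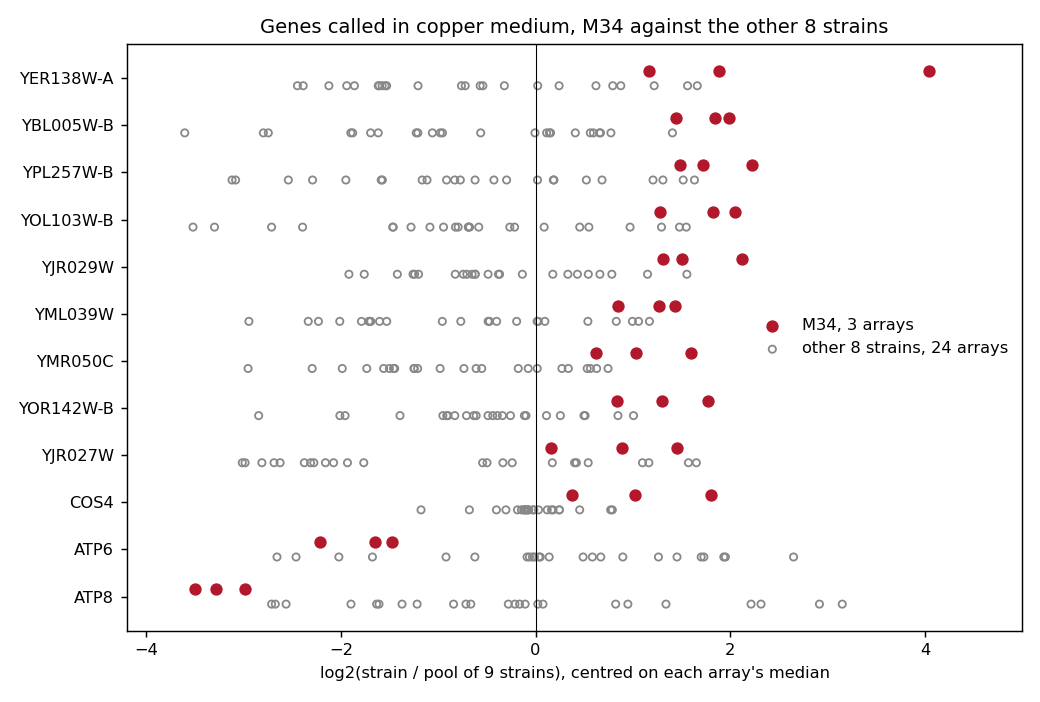
Centred log2 ratio of strain over pool (horizontal axis) in copper sulfate medium for the 12 called genes, with the 3 M34 arrays as filled points and the 24 arrays of the other 8 strains as open points. The M34 points lie apart from all 24 others for ATP8, at the low end, and for YBL005W-B, at the high end, and overlap or touch the upper or lower range of the others elsewhere.

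ATP8 encodes a small membrane subunit of the ATP synthase and was the gene most reduced in M34. Its centred log2 ratios were -3.28, -3.50 and -2.98 on the M34 copper arrays, while the other 24 arrays ran from -2.71 through a median of -0.25 to 3.15. All 3 M34 arrays lay below all 24 others, which held for 2 of 5524 genes (0.0362%), the other being HGH1, a chaperone gene for translation elongation factor 2 that was named after its values were seen. HGH1 had -0.66, -0.45 and -0.52 on the M34 arrays and a difference of -0.61, which did not pass. For ATP8 the difference of M34 from the mean of the other strains was -3.05 ± 0.48 (SE, n = 3 and 24 arrays; limma, adjusted p = 3.21e-04). The call held without any single copper array, with an adjusted p of at most 0.0388 when an M34 array was left out and 5.50e-04 when an array of another strain was.

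The other strains were themselves spread widely at ATP8, with an SD of 1.69 between their 8 means. YPS163 had 3.15, 2.21 and 2.92, and S288C had 2.32, 0.95 and 1.34, while M13 had -2.67, -2.56 and -2.71 and came closest to M34. M34 was lower than YPS163 by a log2 difference of -6.01, than S288C by -4.79 and than M5 by -3.52, the 3 single-strain comparisons that passed (limma, adjusted p = 3.16e-08, 7.55e-06 and 0.00571). Against M13 the difference was -0.60 with a 95% interval from -1.90 to 0.69, so the 2 strains were not told apart at ATP8 by 3 arrays each.

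ATP6 encodes the subunit of the ATP synthase that forms the proton path through the membrane. The M34 copper arrays had -1.65, -2.21 and -1.48, and the other 24 ran from -2.66 through 0.09 to 2.65. The groups overlapped, because M13 had -1.67, -2.46 and -0.92 and S288C had -0.62, -2.66 and -2.02. M34 was lower than the mean of the other strains by -1.99 ± 0.46 on the log2 scale (SE; limma, adjusted p = 0.0416). This call was the less secure of the pair: it ended without any one of the 3 M34 arrays (adjusted p from 0.0692 to 1.00), and also without any one of 10 arrays of other strains, namely M32 2 and 3, M5 1 and 2, M14 1, M22 1, S288C 1 and 3, YPS163 3 and M8 1 (adjusted p at most 0.0587). The ATP6 call also ended when all arrays of M5, of M14, of M22, of YPS163 or of M8 were left out. Against single strains it passed for YPS163 only (-3.88; limma, adjusted p = 1.95e-04), and the difference from S288C was -0.01 with a 95% interval from -1.24 to 1.22.

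M34 and S288C had overlapping ATP6 values and ATP8 values of opposite sign, although ATP8 and ATP6 are neighbours on the mitochondrial genome in the R64 gene table. COX1, which precedes ATP8 there and encodes the catalytic subunit of cytochrome c oxidase, had -0.10, -0.64 and 0.38 on the M34 copper arrays and a difference of -0.41, which did not pass (limma, adjusted p = 1.00). The COX1 values of YPS163 were 2.63, 2.49 and 1.95, and M34 was lower than that strain by -2.47 (adjusted p = 0.00126).

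**Figure D2:**
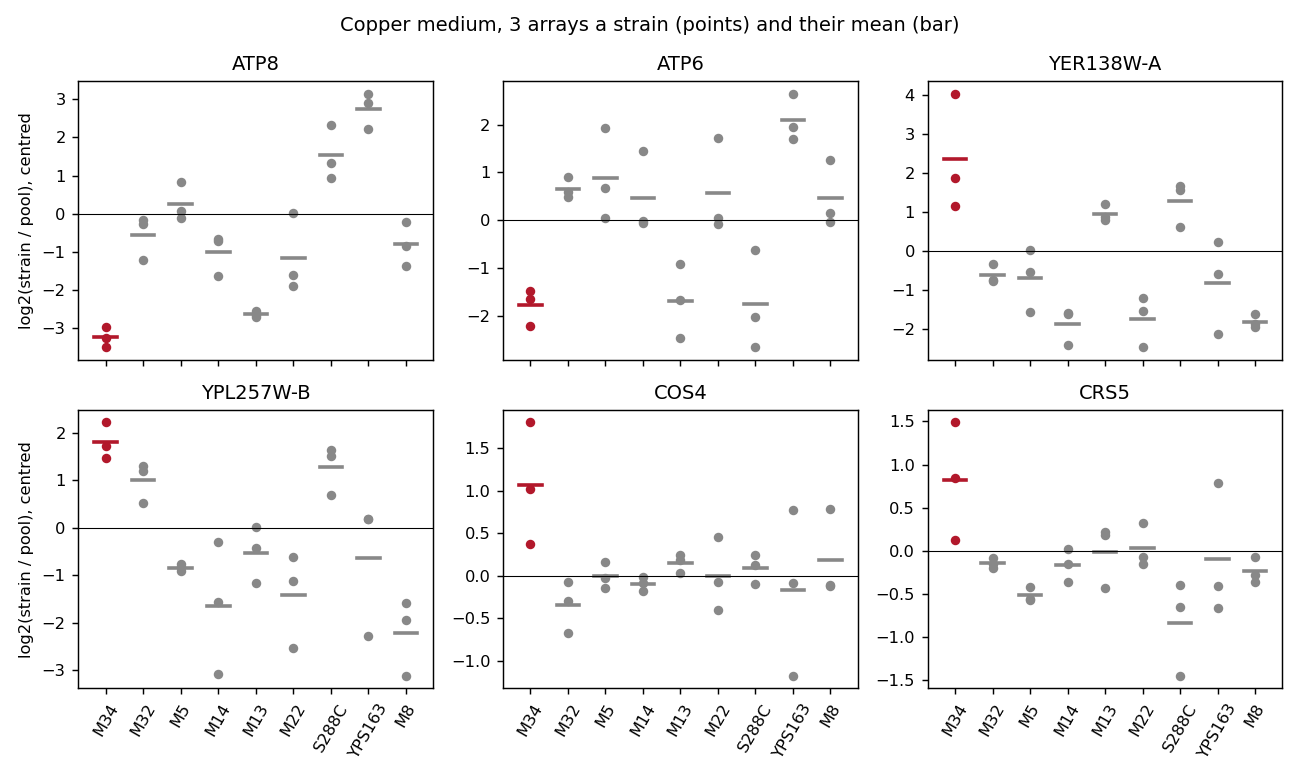
Centred log2 ratio of strain over pool (vertical axes, each panel on its own scale) in copper sulfate medium for 6 genes, with the 3 arrays of each strain as points and their mean as a bar. M34 is leftmost: it is lowest for ATP8 next to M13, level with M13 and S288C for ATP6, and has the highest mean for YER138W-A, YPL257W-B, COS4 and CRS5.

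The rest of the mitochondrial genome did not follow. Of 18 listed genes of that genome, 2 were lower, 0 were higher and 16 did not pass, and 4 were lower at an unadjusted p under 0.05, against 1.38% of all genes. The list's median difference was -0.21 in copper and 0.15 in rich medium. The group that did not pass included the oxidase genes COX2 (0.65) and COX3 (-0.27), the cytochrome b gene COB (0.56), the ATP synthase ring gene OLI1 (-0.01) and the ribosomal protein gene VAR1 (-0.15). Frames within introns of COX1 spread from -1.70 at AI1 and -1.02 at AI5_BETA to 0.56 at AI2. The intron frame AI4 was higher in M34 than in YPS163 by 2.47 (limma, adjusted p = 0.0243), where its M34 values were 1.16, -1.41 and 0.52.

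**Figure D3:**
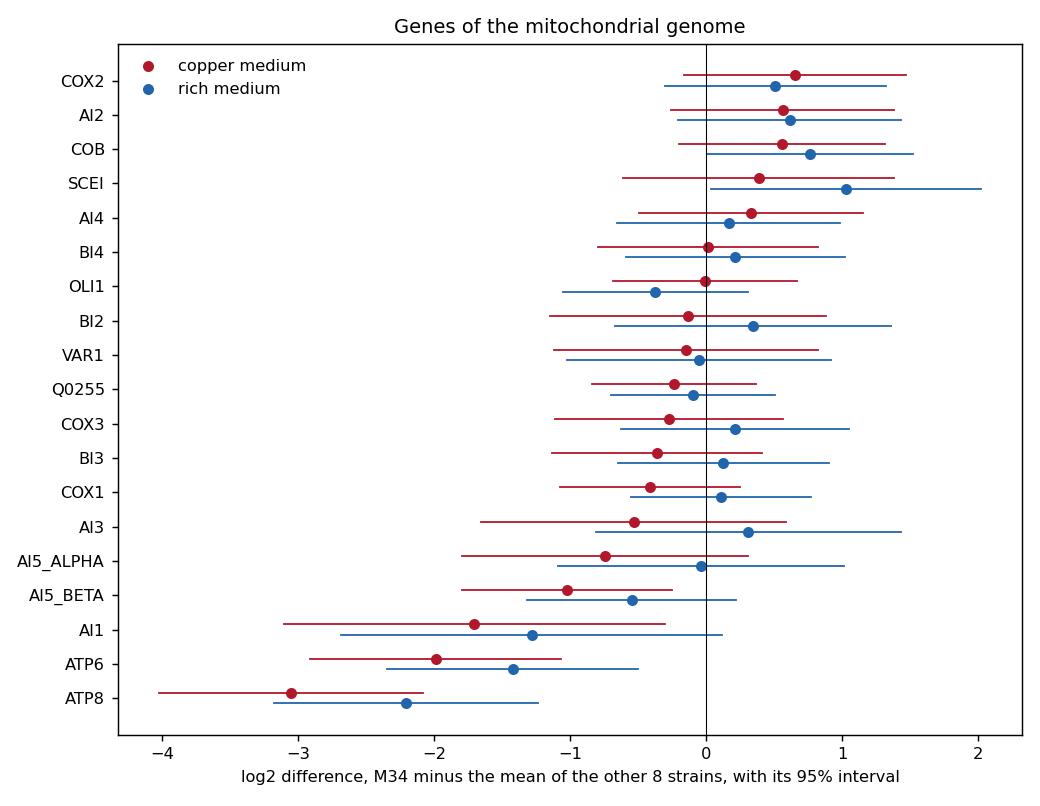
Log2 difference of M34 from the mean of the other 8 strains (horizontal axis, point with its 95% interval) for the 19 measured genes annotated to the mitochondrial genome, in copper sulfate medium (upper point of each pair) and in rich medium (lower point). ATP8 and ATP6 stand at the low end in both media, and most other intervals include 0.

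Nuclear genes for mitochondrial functions were not called. None of 28 nuclear ATP synthase genes passed (median difference 0.12), nor any of 27 respiratory chain genes (0.19), 69 mitochondrial ribosome genes (0.05) or 22 genes of the retrograde and petite response (0.08), the nuclear genes that react to failing mitochondria. At an unadjusted p under 0.05, 1 ATP synthase gene was higher, 4 mitochondrial ribosome genes and 1 retrograde gene were lower, and 0 respiratory chain genes differed, against 1.96% higher and 1.38% lower among all genes. The catalytic ATP synthase subunits ATP1 and ATP2 differed by 0.20 and 0.31, cytochrome c CYC1 by 0.07, and the retrograde targets CIT2 and DLD3 by 0.20 and 0.37, all with an adjusted p of 1.00 by limma.

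The frame with the highest M34 signal was YER138W-A, an uncharacterised short frame that lies next to the Ty1 frame YER138C in the R64 gene table. It had 4.04, 1.16 and 1.88 on the M34 copper arrays, against -2.45 through -0.74 to 1.66 on the other 24. M34 array 1 was far above the other 2, and its value was the 1 among all M34 copper values above 3.17, the log2 of 9, which is the highest ratio that equal parts of 9 strains allow before centring. The difference was 3.02 ± 0.40 (SE; limma, adjusted p = 9.81e-06), and it stayed past the threshold without any single copper array (adjusted p at most 0.0269). S288C came next at 0.62, 1.56 and 1.66, then M13 at 0.79, 0.88 and 1.22. M34 was higher than 6 of 8 strains in single comparisons, by 2.96 over M32 up to 4.22 over M14, and the differences from S288C (1.08) and M13 (1.40) did not pass.

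Of 23 Ty1 Gag-Pol frames, 8 were higher in M34, 0 were lower and 15 did not pass, and the median difference was 1.64. These frames are near-identical copies that share hybridization, so they are not independent measurements of single elements, and this list was drawn up after the calls had been seen. The median over the 23 frames was 1.04, 1.21 and 0.85 on the M34 copper arrays, and -2.94 through -0.63 to 1.15 on the 24 others. S288C alone reached the level of M34, with medians of 0.77, 1.05 and 1.15, and M32 came next with 0.32, 0.45 and 0.51. M8 was lowest with -2.94, -1.24 and -0.82.

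YPL257W-B had the lowest adjusted p among these frames. Its M34 copper arrays had 1.48, 2.22 and 1.72, and the others ran from -3.12 through -0.70 to 1.63. M34 array 1 fell within the upper end of the others, where S288C had 0.68, 1.63 and 1.52 and M32 had 1.31, 0.52 and 1.21. The difference was 2.43 ± 0.42 (SE; limma, adjusted p = 0.00116). It ended without M34 array 2 (adjusted p = 0.0543).

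YBL005W-B had the largest difference of the Ty1 Gag-Pol frames, 2.45 (limma, adjusted p = 0.0272), with 1.84, 1.98 and 1.44 on the M34 arrays and -3.60 through -0.76 to 1.41 on the others. Its 3 M34 arrays lay above all 24 others, which held for 5 of 5524 genes (0.0905%). The others were COS1, COS2, the Ty1 Gag-Pol frame YGR161C-D and YLR035C-A, which was not classed as Ty or non-Ty here. The other 6 called frames differed by 2.40 (YOL103W-B), 2.01 (YJR029W), 1.94 (YML039W), 1.86 (YMR050C), 1.83 (YOR142W-B) and 1.82 (YJR027W). YMR050C was the weakest call of the 8 (adjusted p = 0.0486), and it ended without any one of the 3 M34 arrays (adjusted p from 0.208 to 0.787) or of 16 arrays of other strains (M32 1, 2 and 3, M5 1 and 3, M14 1 and 3, M13 1 and 3, M22 1, S288C 1, 2 and 3, YPS163 2 and 3, and M8 1; adjusted p at most 0.0692). YBL005W-B, YML039W, YOL103W-B and YOR142W-B also ended without any one of the 3 M34 arrays, with adjusted p from 0.103 to 0.647, from 0.103 to 0.343, from 0.127 to 0.205 and from 0.0841 to 1.00. YJR029W ended without M34 array 1 (adjusted p = 0.205) or 2 (0.252), and YJR027W without M34 array 1 (0.262) or 3 (0.249).

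At an unadjusted p under 0.05, 17 of 23 Ty1 Gag-Pol frames were higher, against 1.96% of all genes, with differences of 0.99 to 2.45. The other 6 frames (YDR098C-B, YNL054W-B, YLR227W-B, YGR038C-B, YDR365W-B and YDR316W-B) had differences of -0.43 to 0.62. The p-value makes this split and so sets the ranges apart in part, and whether the frames fall into separate classes was not tested. Against S288C, 1 of the 8 strains in the mean, the 17 frames ranged from -0.42 to 0.81 and the 6 from -2.04 to -0.75. As a description, the 17 frames had a median difference of 0.52 from S288C, 1.89 from M13 and 2.90 from M8, and the 6 had -1.68, -1.54 and 1.22.

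The shorter Ty1 Gag frames had smaller differences. None of 23 passed, all 23 were positive, from 0.14 (YMR046C) to 1.55 (YNL054W-A), and 11 were higher at an unadjusted p under 0.05, against 1.96% of all genes. Their median was 0.69, and over arrays it was 0.15, 1.28 and 0.03 in M34, so it was highest on M34 array 2. Among arrays of the same number, S288C alone was above M34 on arrays 1 (0.83) and 3 (0.57). On array 2 M34 was highest, next to S288C at 1.01. Against S288C the median difference turned negative, at -0.35. In rich medium the median difference was 0.98 and all 23 were positive. There 1 passed and 19 were higher at an unadjusted p under 0.05 by limma, against 106 of 5524 genes.

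No Ty2 frame passed against the mean of the other strains. The median difference of the 8 Ty2 Gag-Pol frames was 0.01, with a range of -0.15 to 0.22, and that of the 8 Ty2 Gag frames was -0.06. The Gag-Pol value near 0 averages strains on both sides of M34. All 8 Gag-Pol frames were negative against M13 (median -1.45) and S288C (-1.51), and all 8 were positive against M14 (0.74), M22 (0.51), YPS163 (0.42) and M8 (0.91). None of these 8 frames passed in any single-strain comparison. One Ty2 Gag frame, YOR192C-A, passed against M13 (-2.01; limma, adjusted p = 0.00948).

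**Figure D4:**
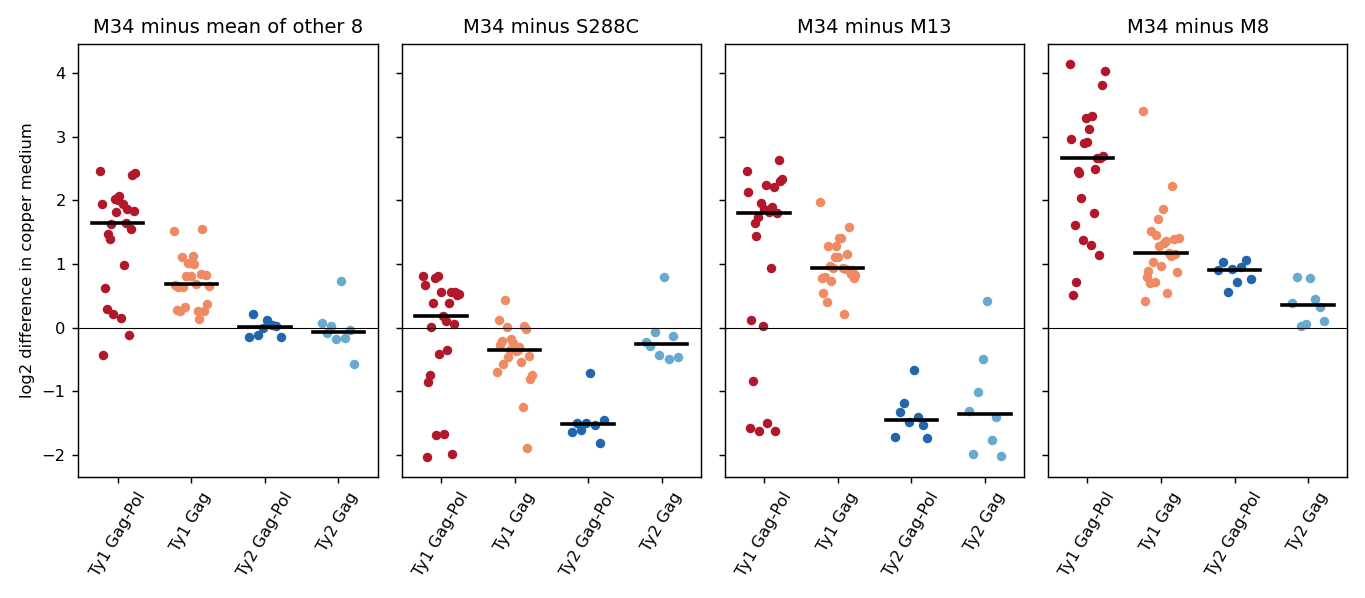
Log2 difference in copper sulfate medium (vertical axis) of each Ty frame between M34 and the mean of the other 8 strains, S288C, M13 and M8 (panels), with the median of each class as a bar. The 23 Ty1 Gag-Pol frames are mostly positive against the mean (median 1.64) and against M8 (2.66), centre near 0 against S288C (0.18), and the Ty2 Gag-Pol frames lie near 0 against the mean and below it against S288C and M13.

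COS4 belongs to a family of subtelomeric membrane protein genes whose products help to sort other membrane proteins to the vacuole. It had 1.80, 1.02 and 0.37 on the M34 copper arrays and -1.18 through -0.07 to 0.79 on the others. The lowest M34 array lay within the range of the others, and the difference was 1.09 ± 0.23 (SE; limma, adjusted p = 0.0189). M34 was above each of the 8 strains by 0.88 to 1.42, though no single comparison passed. The call ended without M34 array 1 (difference 0.87, adjusted p = 1.00) or M34 array 2 (1.03, adjusted p = 0.274).

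COS4 was the 1 called gene of its family. In the list of COS and subtelomeric genes 1 of 20 was higher, 0 were lower and 19 did not pass, 6 were higher at an unadjusted p under 0.05 against 1.96% of all genes, and the median was 0.33 in copper and 0.30 in rich medium. COS1 had 1.24, 0.73 and 0.64 on the M34 arrays, all above the other 24 arrays, whose highest was 0.45, and a difference of 1.45 (limma, adjusted p = 0.0781). The lowest COS1 values belonged to YPS163 (-1.46, -3.87 and -1.98), and against that strain alone COS1 (3.30, adjusted p = 4.74e-05) and COS2 (1.51, adjusted p = 0.0144) passed. COS2, COS3, COS8 and COS5 differed by 0.88, 0.97, 0.73 and -0.42 from the mean of the other strains, and none of them passed. COS3 and COS8 were named after their values were seen. COS genes resemble each other in sequence, so their spots may share hybridization.

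The genes that handle copper were not called. In the copper list 0 of 22 passed by limma, 2 were higher at an unadjusted p under 0.05, against 1.96% of all genes, and the median difference was 0.10 in copper and 0.04 in rich medium. The nearest was CRS5, a metallothionein gene that the R64 gene table, drawn from S288C, classes as a pseudogene. It had 1.49, 0.84 and 0.13 on the M34 arrays and -1.44 through -0.23 to 0.78 on the others. M34 had the highest CRS5 mean of the 9 strains, with a difference of 1.06 ± 0.28 (SE; limma, adjusted p = 0.116), but M34 array 3 lay inside the others' range. Against S288C, where CRS5 had -1.44, -0.65 and -0.39, it passed (1.65, adjusted p = 0.0281). SOD1 had 0.70, 0.30 and 0.43 in M34 and a difference of 0.72 that did not pass.

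The main metallothionein genes gave no sign of a high level in M34. CUP1-1 had -1.43, -0.59 and -0.28 on the M34 arrays, -3.08 through -0.23 to 1.52 on the others, and a difference of -0.41 with an adjusted p of 1.00. Its near-identical copy CUP1-2, which shares its hybridization, differed by -0.15. The copper and iron reductase FRE1 differed by -0.51. The median of the copper list was 0.05, -0.08 and -0.05 on the M34 arrays, within the -0.53 to 0.26 of the other 24.

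No chaperone gene was called in copper. None of 34 heat shock and chaperone genes passed by limma, and 11 were higher and 0 lower at an unadjusted p under 0.05, against 1.96% and 1.38% of all genes. The median difference was 0.46 in copper and 0.10 in rich medium, and 30 of 34 were positive in copper. The list's median was 0.57, 0.11 and 0.24 on the M34 copper arrays, and -1.11 through -0.07 to 0.25 on the other 24, so M34 array 1 alone lay above all others, and M34 arrays 2 and 3 lay within their range. Among arrays of the same number, M34 had the highest list median each time. The next were YPS163 at 0.25, S288C at 0.07 and YPS163 at 0.17. YPS163 was the other strain with a positive mean of these medians, at 0.11, against 0.31 in M34.

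BTN2, a heat-induced gene whose product gathers misfolded proteins, had the largest difference of the list. Its values were 2.41, -0.06 and 0.63 in M34, -2.45 through -0.77 to 1.54 on the others, and the difference was 1.61 (limma, adjusted p = 0.101). In rich medium the BTN2 difference was 0.04, and the difference between media had an unadjusted p of 0.0103 and an adjusted p of 1.00. The Hsp90 gene HSC82 differed by 1.12, the endoplasmic reticulum chaperone KAR2 by 1.05, the Hsp40 gene SIS1 by 0.98 and the Hsp90 partner STI1 by 0.93. HSC82, SIS1 and STI1 were named after their values were seen, and the lowest of the list was SSE2 at -0.20. KAR2 was higher in M34 than in S288C (1.81; limma, adjusted p = 0.0224). In HSC82 the M34 values were 1.75, -0.08 and 0.92, so here too array 2 stayed near 0.

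With the running median over spot positions subtracted, 8 genes joined the 12. These were 4 Ty1 Gag-Pol frames (YLR157C-B, YNL284C-B, YBR012W-B and YMR045C), the unclassed frame YLR035C-A, COS1 (limma, adjusted p = 0.00489), CRS5 (adjusted p = 0.00656) and BTN2 (adjusted p = 0.0213), all higher in M34. On the values without this step the same 8 had adjusted p from 0.0612 to 0.151.

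Among the 34 gene lists, 32 had no call in copper, with medians of -0.13 to 0.46. The lists with calls were the mitochondrial genome and the COS and subtelomeric genes. Near the low end were the hexose transporters (median -0.13), and the flavohemoglobin gene YHB1 had -2.28, -4.41 and 0.24 on the M34 arrays and a difference of -1.53 that did not pass. The general stress list had a median of 0.30, the proteasome 0.23, the oxidative stress list 0.16 and the cytosolic ribosomal proteins 0.08. Over array medians, the general stress list averaged 0.11 in M34, below S288C (0.27) and M32 (0.20). The proteasome list had 0.50, -0.15 and -0.03 on the M34 arrays, and M5 averaged higher (0.15 against 0.11). By chromosome, the median difference ran from -0.09 on XVI to 0.12 on III among 16 nuclear chromosomes, and was -0.23 on the mitochondrial genome.

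The other strains were set against M34 in rich medium in the same way. There 15 of 5524 genes (0.272%) passed, 13 higher and 2 lower, and 9 of them were also called in copper, which is 75% of the copper calls and 60% of the rich medium calls. All 12 genes called in copper had the same sign in rich medium. ATP8 differed by -2.21 (limma, adjusted p = 0.0266), although its M34 values of -3.47, -5.16 and 0.13 there included 1 array near 0. YER138W-A differed by 2.18, from M34 values of 1.67, 0.62 and 1.10, and S288C was higher still at 1.76, 2.03 and 1.48. ATP6 (-1.42), COS4 (0.81) and YBL005W-B (2.14) were called in copper and did not pass in rich medium.

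In the other direction, 6 genes passed in rich medium and not in copper. PHO84, the high-affinity phosphate transporter gene, was lower in M34 than in the mean of the other strains, by -0.76 in copper and -1.80 in rich medium. That mean includes S288C, the strain with high PHO84 in copper. The Ty1 Gag-Pol frames YGR161C-D, YML045W and YMR045C, the Ty1 Gag frame YGR038C-A, and the unclassed frame YAR009C were higher. PHO84 had -2.36, -1.50 and -2.77 on the M34 rich medium arrays. The rich medium count fell to 0 by limma without M34 array 1 of that medium, to 4 without array 2 and to 7 without array 3, and was 27 without YPS163 array 2. It was 0 without every strain's replicate 1 (64 genes at an unadjusted p under 0.05), 230 without every replicate 2 and 1 without every replicate 3, and leaving out a whole strain gave 5 without M14, 6 without M13, 5 without YPS163 and 8 without M8. Without S288C there were 21 calls in rich medium, 21 higher and 0 lower, so PHO84 and ATP8 did not pass there. Without centring, 1 gene passed in rich medium, and it was higher in M34.

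The difference between media was tested for each gene as the M34 difference in copper minus the M34 difference in rich medium. By limma 0 of 5524 genes passed (0%), and 223 (4.04%) had an unadjusted p under 0.05. A call in 1 medium only is therefore not shown to be particular to that medium. Among the genes named above the unadjusted p was 0.222 for ATP8, 0.386 for ATP6, 0.143 for YER138W-A, 0.393 for COS4, 0.0839 for CRS5 and 0.0189 for SOD1.

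**Figure D5:**
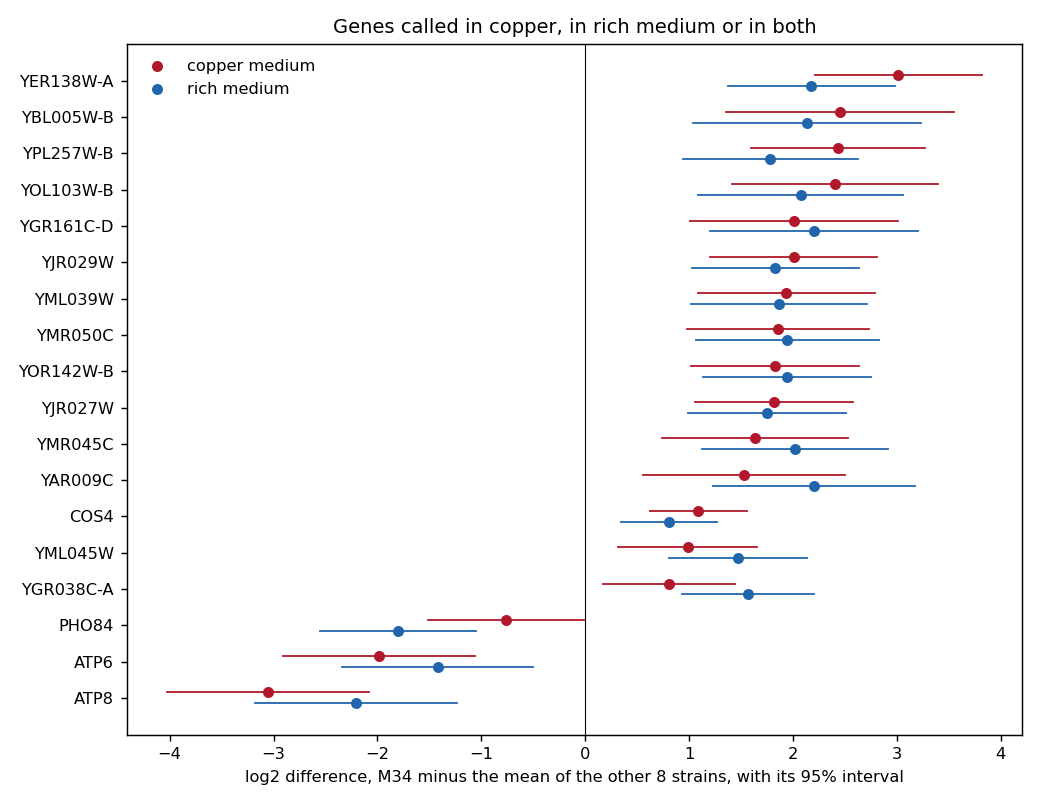
Log2 difference of M34 from the mean of the other 8 strains (horizontal axis, point with its 95% interval) in copper sulfate medium (upper point of each pair) and in rich medium (lower point), for the 18 genes called in either medium. Each gene lies on the same side of 0 in both media, and the intervals of the pairs overlap.

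Single strains differed in how far they stood from M34 in copper. M34 was nearest to M32 and M13, with 2 calls (0.0362%) against M32 and 3 (0.0543%) against M13, followed by M5 with 6 (0.109%), M14 with 7 (0.127%), M22 with 10 (0.181%), S288C with 11 (0.199%), YPS163 with 12 (0.217%) and M8 with 16 (0.290%). These counts rest on 3 arrays a side and share the M34 arrays. With the running median subtracted they were 6 against M32, 15 against M13, 20 against M5, 11 against M14, 17 against M22, 33 against S288C, 23 against YPS163 and 25 against M8, so the order of the strains changed.

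Against M14, M22 and M8 all calls were higher in M34 and most were Ty1 Gag-Pol frames. YER138W-A and YPL257W-B passed against all 3, and the largest differences were 4.22, 4.09 and 4.16 at YER138W-A and 4.15 at YBL005W-B, the last against M8. Against M8 the calls included 13 of 23 Ty1 Gag-Pol frames, the Ty1 Gag frame YBL005W-A (3.40) and the unclassed frame YHR214C-B (2.54).

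Against M32 the 2 calls were YER138W-A (2.96) and YGR201C, an uncharacterised gene. YGR201C had -4.05, -4.19 and -2.07 on the M34 arrays and 1.76, 2.80 and 3.68 in M32, a difference of -6.18 (limma, adjusted p = 1.38e-05). Against M5, ATP8 and the flocculin gene FLO9 (-2.17) were lower, and YER138W-A, YPL257W-B and the cell wall genes HPF1 (2.80) and CSS1 (2.92) were higher. Against M13, the membrane protein gene MRH1 was lower (-2.42), with -0.60, -0.89 and -1.63 in M34 and 1.89, 0.87 and 1.38 in M13, YOR192C-A was lower and YLR179C was higher (2.08).

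No Ty frame passed against S288C, the only strain beside M13 and M32 for which that held for Ty1 Gag-Pol frames. M34 was lower there at ATP8, at PHO84 (-4.65), at MRH1 (-2.70), at ADH2 (-2.10), which encodes the alcohol dehydrogenase that oxidises ethanol, at SPL2 (-1.89), a regulator of phosphate transport, and at the daughter cell wall gene DSE2 (-1.62). It was higher at CRS5, KAR2, YOL014W (1.80), YLR179C (2.17) and HMG1 (1.88), which encodes a rate-limiting enzyme of sterol synthesis. PHO84 had -1.82, -3.25 and -0.65 in M34 and 2.50, 2.79 and 2.95 in S288C, and S288C was the strain with high PHO84 among the 9.

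Against YPS163 the calls were ATP8, ATP6 and COX1, lower in M34, and 9 higher genes: COS1, COS2, AI4, YLR179C (1.57), the sulfur transferase gene RDL1 (2.88), YER138W-A (3.18) and the Ty1 frames YPL257W-B (2.45), YJR027W (2.48) and YML039W (2.45). That made 4 of the 18 listed mitochondrial genes, while against M13, M14, M22, M8 and M32 none of the 18 passed.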

How the data were processed

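Per the labels' protocols, total RNA was reverse transcribed with amino-allyl dUTP, labelled with Cy3 or Cy5, and scanned on a GenePix 4000A; spots were read with the GenePix program, version 4.0, and bad spots were flagged. The deposited values are log2 ratios of the 2 channels, 6144 rows on each of 60 arrays with 0 missing; the scale was read from the values, since 100% of the antilogs under 10 have 3 decimals within 1e-05. Any normalization by the authors is not given in the sources used here. Array medians ran from -0.77 to 1.16, so each array was centred on its median here, which takes 0.13 off every M34 difference in copper. Arrays were turned to strain over pool by the labelled channel: in copper, replicate 1 of each strain lay in channel 2 and replicates 2 and 3 in channel 1.

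Rows were named through the platform annotation and the R64 gene table by identifier: 5541 rows had 1 gene, 0 had several and 603 had none, 5536 matched R64, and 17 genes on several rows were averaged, giving 5524 genes. The fit (R 4.3.3, limma 3.58.1, lmFit and eBayes) used all 54 strain arrays with 18 groups of strain and medium and a channel effect, and contrasted M34 with the mean of the other 8 strains. P-values were Benjamini-Hochberg adjusted over all 5524 genes, with a threshold of 0.05. The procedure was tested on simulated data. No row was removed for low signal, since the files used here hold no intensities.

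Named genes were the called genes, up to 20 in each direction, members of 34 gene lists past the threshold (1017 of 1061 listed genes measured), the highest and lowest member of lists without a call, a fixed set of copper, ATP synthase and mitochondrial genes, and genes called against a single strain. Other genes were named after their values were seen, among them HSC82, SIS1, STI1, COS3, COS8, HGH1 and YLR035C-A. The comparison, the gene lists and the running median (15 by 15 spots) were chosen with earlier results of these data known. The Ty classes were drawn up from annotated lengths and nesting after the calls were seen. Ty frames of other lengths fall outside these classes. YLR035C-A, YHR214C-B and YAR009C are in no class, and whether they are Ty frames was not assessed, so Ty counts cover the classed frames only. The alternatives were uncentred or scaled arrays, the running median, centring within 16 blocks, no channel effect, a robust eBayes step, 1 medium alone, each row on its own, a replicate block, and leaving out arrays, replicate numbers or strains. Sequences were not used here, so whether strain differences in sequence under a spot changed its signal was not tested.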

Additional observations from a re-analysis of the deposited data

Results flagged for a closer look

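A row with no listed gene carried a signal outside the named genes. Row 3915 of the array was higher in M34 than in the mean of the other 8 strains in copper by 2.05 ± 0.39 on the log2 scale (SE; limma over all 6144 rows, Benjamini-Hochberg adjusted p = 0.00573), with 1.70, 0.28 and 1.76 on the 3 M34 arrays and a difference of 1.80 in rich medium. It was the 1 called row among 603 rows without a gene, of which 13 (2.16%) had an unadjusted p under 0.05.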

How the results depend on the processing

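All 12 genes called in copper kept their direction in all 47 alternatives tried for each gene; ATP8 and YER138W-A stayed past the threshold in 46 of 47, ATP6 in 25 and YMR050C in 18. The count of 12 copper calls became 7 without centring, 20 with the running median, 24 with centring within 16 blocks and 20 with the copper arrays alone. The 15 rich medium calls became 1 without centring, 0 with scaled arrays (636 genes at an unadjusted p under 0.05, by limma), 25 with the running median, 26 with centring within 16 blocks and 4 with the rich medium arrays alone. The cause of these shifts was not tested. Same-numbered arrays of 2 strains deviated together, with a median r of 0.24 in copper and 0.20 in rich medium. Unequal numbers had -0.13 and -0.09. These are no separate yardstick, since deviations from a strain's own mean sum to 0 and push them below 0. The number also follows the channel in copper, and the channel effect was left in these deviations. Not all pairs were over 0.1 (81 of 108 in copper and 67 of 108 in rich medium), and no label says that a number is shared, so the fit had no block. With a replicate block in place of the channel effect there were 12 calls in copper, 16 in rich medium and 0 between media. Leaving out 1 array, 1 replicate number or 1 strain gave 0 to 18 calls in copper and 0 to 230 in rich medium; without replicate 1, 1 channel order remained in copper. Between media 0 genes passed in every setting, with 15 to 661 at an unadjusted p under 0.05 when a replicate number was left out, and the fit of 1 medium alone could not be made for it. Values have no intensities beside them, so signal over background is unknown.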
